A study of Mus musculus with 12 samples.

Results

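The genes described here are 10 markers of macrophages, most of them used to recognise Kupffer cells, the macrophages that reside in the liver sinusoids: Marco, Cd5l, Cd68, Mpeg1, Clec4f, Adgre1, Csf1r, Vsig4, Timd4 and Cd163. They were chosen by symbol: a probe set was taken where the array annotation gave it 1 of these symbols and no other. 9 of the 10 genes were measured, by 11 probe sets, among 12393 genes measured by 20380 such probe sets. Csf1r had 3 probe sets and each of the other 8 genes had 1. Timd4, a receptor for phosphatidylserine on dying cells, is not analysed here.

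Kupffer cells are seeded before birth, renew themselves in the adult liver, and clear bacteria, complement-coated particles and aged red cells from portal blood through scavenger and complement receptors. Their survival depends on signalling through CSF1R, the receptor for the cytokines CSF1 and IL34, and their identity on transcription factors that include PU.1 (encoded by Spi1), LXR-alpha (Nr1h3), SpiC and ID3. In obese mice some resident Kupffer cells are lost and monocytes from the blood enter the liver, and these first lack the most restricted Kupffer cell markers, such as Clec4f and Timd4, while carrying markers that all macrophages share.

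RNA was extracted from entire livers of C57BL/6 females, 8 to 12 weeks old, and hybridised to 12 Affymetrix Mouse430A arrays, 3 per group. The groups were HDAC6 knockout (HDAC6-/-), HDAC9 knockout (HDAC9-/-), wild type on a high-fat diet after weaning (fat giving 60% of the energy) and wild type on chow (25%). HDAC6 and HDAC9 are histone deacetylases. The labels give no diet for the knockout mice, and knockout and diet cannot be told apart where the fed diets were unlike. The way the deletions were made is not given in the sources used here. Replicates are numbered in the labels without a statement that each is a separate mouse. The p-values therefore rest on a spread between samples that may be technical.

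Hdac6 lay at 6.17, 6.16 and 6.505 on the HDAC6 knockout arrays and between 7.45 and 8.03 on the other 9. The Hdac9 probe set lay between 4.04 and 4.53 on all 12 arrays and does not separate the HDAC9 knockout, which is therefore known from its label alone. Alb, the hepatocyte gene for albumin, averaged 14.20, 14.22, 14.18 and 14.19 in HDAC6 knockout, HDAC9 knockout, high-fat and chow livers. These means lie near the highest value on any array (14.25), so nothing is concluded from them on hepatocyte content. Values are log2 expression, array medians lay between 5.78 and 5.86, and the lowest correlation between any pair of arrays was 0.987. HDAC9 knockout replicate 2 stood apart in 12 measured markers of the exocrine pancreas, whose mean lay 3.58 above their 12-array mean on that array and between -0.62 and 0.24 on the other 11. Marker values and gene-list counts for the HDAC9 knockout are also given without that array, the lists together at the end.

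Promoter windows of 8 of the 10 markers were taken from RefSeq (mouse build GRCm38.p6), each reaching from 250 bases before to 50 bases after the gene's start. The windows of 1 chromosome were left out, for the markers and for all promoters alike. They were searched on both strands for the letters at the centre of the sites of factors known in Kupffer cells. GAGGAA, the core bound by PU.1, occurred in 4 of the 8 windows, against 28.3% of 32851 promoters of the same length. TGCTGAC, bound by MAF factors, occurred in 1 of 8 (4.67% of promoters), AGGTCA, bound by nuclear receptors, in 2 of 8 (16.3%), and TGGGAA, bound by RBPJ, in 3 of 8 (25.6%). No matches of different motifs overlapped in these windows. A match is a description of the letters, not a bound site. The 4 windows that hold GAGGAA are shown. They belong to Marco, Cd5l, Cd68 and Vsig4. The high-fat arrays all lay above the chow arrays for the first 3 and overlapped them for Vsig4. In the HDAC9 knockout all arrays lay above chow for Cd5l, Cd68 and Mpeg1, and the Mpeg1 window lacks these letters. A link between these letters and expression was not tested. Capitals mark GAGGAA or, where the motif lies on the other strand, TTCCTC. Marco lies at chr1:120504975-120505274 (minus strand), Cd5l at chr3:87357631-87357930 (plus strand), Cd68 at chr11:69666121-69666420 (minus strand) and Vsig4 at chrX:96293389-96293688 (minus strand).
Marco: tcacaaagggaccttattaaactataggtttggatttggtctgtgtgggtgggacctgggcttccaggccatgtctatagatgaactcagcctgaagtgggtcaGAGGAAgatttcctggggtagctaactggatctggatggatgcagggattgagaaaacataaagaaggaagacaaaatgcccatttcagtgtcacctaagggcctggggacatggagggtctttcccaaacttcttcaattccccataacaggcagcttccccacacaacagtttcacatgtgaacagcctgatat
Cd5l: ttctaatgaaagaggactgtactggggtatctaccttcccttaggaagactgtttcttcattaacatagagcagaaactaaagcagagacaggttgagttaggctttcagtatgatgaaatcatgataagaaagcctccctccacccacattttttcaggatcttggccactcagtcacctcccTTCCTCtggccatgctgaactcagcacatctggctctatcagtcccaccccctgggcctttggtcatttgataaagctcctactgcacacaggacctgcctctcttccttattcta
Cd68: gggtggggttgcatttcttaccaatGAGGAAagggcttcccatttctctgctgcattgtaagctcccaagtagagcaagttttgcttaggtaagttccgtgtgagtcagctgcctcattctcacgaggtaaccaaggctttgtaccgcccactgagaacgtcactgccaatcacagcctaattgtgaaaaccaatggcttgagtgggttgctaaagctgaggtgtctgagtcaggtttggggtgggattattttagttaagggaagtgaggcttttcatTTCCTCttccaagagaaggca
Vsig4: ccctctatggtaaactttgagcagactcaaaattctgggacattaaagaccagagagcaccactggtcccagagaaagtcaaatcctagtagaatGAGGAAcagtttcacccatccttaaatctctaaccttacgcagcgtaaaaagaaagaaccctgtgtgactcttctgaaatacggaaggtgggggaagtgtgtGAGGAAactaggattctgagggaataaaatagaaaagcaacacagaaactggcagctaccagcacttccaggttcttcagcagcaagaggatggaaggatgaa
Counted from the gene's start, the motif lay at -146 to -141 in Marco, at -66 to -61 in Cd5l, and at -155 to -150 and -53 to -48 in Vsig4. In Cd68 it lay at -225 to -220 and again at 29 to 34. The windows of Clec4f, Cd163, Mpeg1 and Timd4 did not hold these letters.

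Chow livers had the lowest mean for 7 of the 9 measured markers, the exceptions being Clec4f and Cd163, and no marker had its highest mean there. The share of all genes with such an order was not counted. The markers' differences from chow were of modest size, from 2.06-fold down to none, and the spread among the 3 chow arrays was wide relative to them. No marker passed the test, limma with Benjamini-Hochberg adjustment over the 12393 genes and a threshold of 0.05, in any of the 6 comparisons. Because whole liver was profiled, a higher value cannot be told apart between more macrophages and more RNA of that gene per macrophage.

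**Figure D1:**
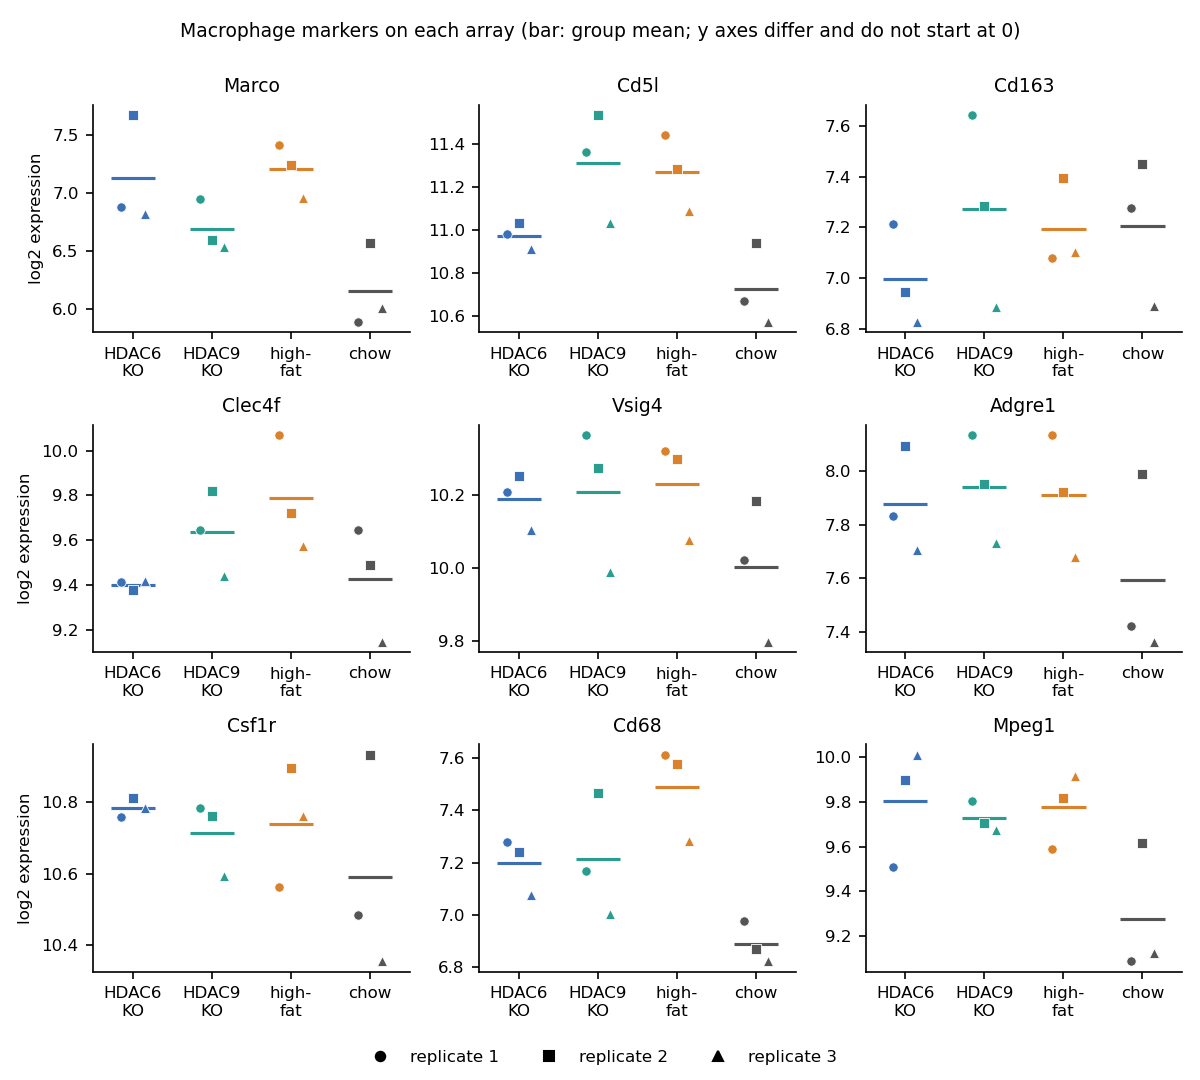
Log2 expression of the 9 measured markers on each of the 12 arrays. Symbols are replicates, bars are group means, and the y axes differ and do not start at 0. Marco, Cd5l and Cd68 on all 3 high-fat arrays lie above all 3 chow arrays, and chow replicate 2 is the highest chow array for 7 of the 9 markers.

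Marco is a class A scavenger receptor that binds bacteria and particles and marks Kupffer cells near the portal tracts. It read 6.88, 7.67 and 6.82 in HDAC6 knockout livers, 6.95, 6.59 and 6.54 in HDAC9 knockout livers, 7.41, 7.24 and 6.96 in high-fat livers, and 5.89, 6.57 and 6.01 in chow livers. All HDAC6 knockout and all high-fat arrays lay above all chow arrays, while HDAC9 knockout replicate 3 lay just below the highest chow array. The log2 fold change was 0.97 in the HDAC6 knockout (SE 0.225, 95% confidence interval 0.48 to 1.45, 1.95-fold, limma adjusted p = 0.349). It was 0.53 in the HDAC9 knockout (interval 0.05 to 1.02, adjusted p = 0.763) and 1.04 in high-fat livers (interval 0.56 to 1.52, 2.06-fold, adjusted p = 0.0930). These were the largest differences from chow among the markers in the HDAC6 knockout and high-fat groups. The HDAC6 knockout value rested in part on 1 array: without HDAC6 knockout replicate 2 it was 0.69. Without the pancreas-rich array, HDAC9 knockout replicate 2, the HDAC9 knockout value was 0.58.

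Cd5l encodes AIM, a protein that macrophages secrete into the blood and that modulates lipid handling and macrophage survival. It read 10.98, 11.03 and 10.91 in HDAC6 knockout livers, 11.36, 11.53 and 11.03 in HDAC9 knockout livers, 11.44, 11.28 and 11.09 in high-fat livers, and 10.67, 10.94 and 10.57 in chow livers. Every HDAC9 knockout and high-fat array lay above the chow arrays, and 1 of the HDAC6 knockout arrays lay within the chow range. The log2 fold change over chow was 0.58 in the HDAC9 knockout (SE 0.133, interval 0.30 to 0.87, adjusted p = 0.229) and 0.55 in high-fat livers (interval 0.26 to 0.83, adjusted p = 0.150). It was 0.25 in the HDAC6 knockout (interval -0.04 to 0.53, adjusted p = 0.868). Without the pancreas-rich array the HDAC9 knockout value was 0.47.

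Cd163, the receptor that takes up haptoglobin bound to haemoglobin, did not share this order. It read 7.21, 6.94 and 6.83 in HDAC6 knockout livers, 7.64, 7.28 and 6.89 in HDAC9 knockout livers, 7.08, 7.39 and 7.10 in high-fat livers, and 7.28, 7.45 and 6.89 in chow livers. All groups overlapped the chow arrays, and the HDAC6 knockout had the lowest mean (6.996 against 7.21 in chow). The log2 fold changes were -0.21 in the HDAC6 knockout (interval -0.61 to 0.19, adjusted p = 0.923), 0.06 in the HDAC9 knockout (interval -0.34 to 0.46, adjusted p = 0.979) and -0.01 in high-fat livers (interval -0.41 to 0.39, adjusted p = 0.989). The signs in the HDAC9 knockout and high-fat groups turned when single arrays were left out, and without the pancreas-rich array the HDAC9 knockout value was 0.06.

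Clec4f is a C-type lectin that in the mouse is the most restricted of these genes to Kupffer cells. It read 9.41, 9.38 and 9.42 in HDAC6 knockout livers, 9.65, 9.82 and 9.44 in HDAC9 knockout livers, 10.07, 9.72 and 9.57 in high-fat livers, and 9.645, 9.49 and 9.15 in chow livers. The HDAC6 knockout arrays lay close together within the chow range, and all HDAC9 knockout and high-fat arrays lay above them. High-fat livers had a log2 fold change over chow of 0.36 (SE 0.145, interval 0.05 to 0.67, adjusted p = 0.490) with overlapping arrays. The high-fat value was 0.22 without high-fat replicate 1 or chow replicate 3. The HDAC9 knockout value was 0.21 (interval -0.10 to 0.52, adjusted p = 0.868), and it ranged from 0.068 without chow replicate 3 to 0.32 without chow replicate 1, with 0.12 without the pancreas-rich array. The HDAC6 knockout value was -0.03 (interval -0.34 to 0.29, adjusted p = 0.992), and its sign turned without chow replicate 1 or 2.

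Vsig4, the complement receptor CRIg that captures opsonised bacteria, differed little between groups. It read 10.21, 10.25 and 10.11 in HDAC6 knockout livers, 10.36, 10.27 and 9.99 in HDAC9 knockout livers, 10.32, 10.298 and 10.08 in high-fat livers, and 10.02, 10.18 and 9.800 in chow livers. Chow replicate 3 was the lowest of the 12 arrays, and each group overlapped chow. The log2 fold changes over chow were 0.19, 0.21 and 0.23 in HDAC6 knockout, HDAC9 knockout and high-fat livers, with intervals of -0.07 to 0.44, -0.05 to 0.47 and -0.03 to 0.49. Without chow replicate 3 they were 0.085, 0.11 and 0.13, and without the pancreas-rich array the HDAC9 knockout value was 0.17.

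Cd68, a glycoprotein of macrophage endosomes and lysosomes, was the only marker above all chow arrays on all 9 other arrays. It read 7.28, 7.24 and 7.08 in HDAC6 knockout livers, 7.17, 7.47 and 7.002 in HDAC9 knockout livers, 7.61, 7.58 and 7.28 in high-fat livers, and 6.98, 6.87 and 6.82 in chow livers. How many of all genes lie above chow on all 9 other arrays was not counted. The chow arrays lay closest together for Cd68 (SD 0.0802). The log2 fold change over chow was 0.31 in the HDAC6 knockout (SE 0.131, interval 0.03 to 0.59, adjusted p = 0.838) and 0.32 in the HDAC9 knockout (interval 0.04 to 0.60, adjusted p = 0.757). In high-fat livers it was 0.60 (interval 0.32 to 0.88, 1.52-fold, adjusted p = 0.101). Without HDAC9 knockout replicate 2 the HDAC9 knockout value was 0.19.

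Mpeg1, the pore-forming protein perforin-2 of macrophage phagosomes, read 9.51, 9.896 and 10.01 in HDAC6 knockout livers, 9.805, 9.704 and 9.67 in HDAC9 knockout livers, 9.59, 9.82 and 9.92 in high-fat livers, and 9.09, 9.62 and 9.12 in chow livers. Chow replicate 2 lay within the range of the HDAC6 knockout and high-fat arrays, and all HDAC9 knockout arrays lay above it. The log2 fold changes over chow were of similar size: 0.53 in the HDAC6 knockout (SE 0.153, interval 0.20 to 0.86, adjusted p = 0.662), 0.45 in the HDAC9 knockout (interval 0.12 to 0.78, adjusted p = 0.654) and 0.50 in high-fat livers (interval 0.17 to 0.83, adjusted p = 0.299). The HDAC9 knockout value was 0.46 without the pancreas-rich array.

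Adgre1, an adhesion G protein-coupled receptor used as a general surface marker of mouse macrophages, read 7.83, 8.09 and 7.704 in HDAC6 knockout livers, 8.13, 7.95 and 7.73 in HDAC9 knockout livers, 8.13, 7.92 and 7.68 in high-fat livers, and 7.42, 7.99 and 7.36 in chow livers. Chow replicates 1 and 3 were the lowest of the 12 arrays, while chow replicate 2 lay among the others. The log2 fold changes over chow were 0.29, 0.35 and 0.32 in HDAC6 knockout, HDAC9 knockout and high-fat livers (SE 0.174 each, intervals -0.09 to 0.66, -0.03 to 0.72 and -0.05 to 0.69). Without chow replicate 2 they were 0.48, 0.55 and 0.52, and without chow replicate 3 they were 0.17, 0.23 and 0.21. The HDAC9 knockout value was 0.34 without the pancreas-rich array.

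Csf1r, the receptor on which Kupffer cell survival depends, was measured by 3 probe sets. On the one with the highest mean, which stands for the gene in the fit, it read 10.76, 10.81 and 10.78 in HDAC6 knockout livers, 10.78, 10.76 and 10.59 in HDAC9 knockout livers, 10.56, 10.897 and 10.76 in high-fat livers, and 10.48, 10.93 and 10.35 in chow livers. Chow held both the highest and the lowest of the 12 arrays. The log2 fold changes over chow were 0.19, 0.12 and 0.15 in HDAC6 knockout, HDAC9 knockout and high-fat livers, with intervals of -0.09 to 0.48, -0.16 to 0.41 and -0.13 to 0.43. Without chow replicate 2 they were 0.37, 0.30 and 0.32, and without chow replicate 3 they were 0.077, 0.0051 and 0.032. Leaving out the pancreas-rich array gave 0.099 in the HDAC9 knockout.

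The Csf1r probe set with the lowest mean, whose name ends in _a_at, gave a different picture of chow replicate 2. It read 8.47, 8.54 and 8.67 in HDAC6 knockout livers, 8.702, 8.59 and 8.33 in HDAC9 knockout livers, 8.499, 8.71 and 8.56 in high-fat livers, and 8.34, 7.96 and 8.17 in chow livers. Here chow replicate 2 was the lowest of the 12 arrays, and all HDAC6 knockout and high-fat arrays lay above chow. With every probe set tested on its own, the log2 fold change was 0.40 in the HDAC6 knockout, 0.38 in the HDAC9 knockout and 0.43 in high-fat livers (SE 0.124 each, adjusted p = 0.747, 0.785 and 0.298). On the remaining probe set, whose name ends in _s_at, the differences were 0.26, 0.19 and 0.20, with chow replicate 2 again the highest chow array. The files do not say which Csf1r transcripts each probe set reads, so why the probe sets differ was not tested.

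**Figure D2:**
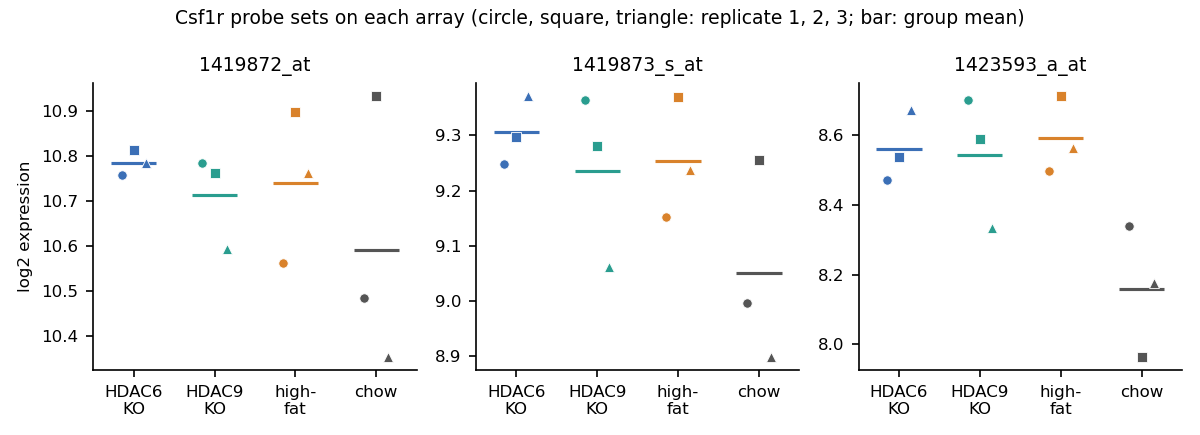
Log2 expression of Csf1r on each of the 12 arrays by its 3 probe sets. Circles, squares and triangles are replicates 1, 2 and 3, bars are group means, and the y axes do not start at 0. Chow replicate 2 is the highest chow array on the left and middle probe sets and the lowest of all arrays on the right one.

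Counted over the 9 markers, HDAC6 knockout livers had higher means than chow for 7, against 45.6% of all genes, and a median log2 fold change of 0.25 against -0.01 over all genes. 0 markers passed limma's adjusted threshold, which 0.0161% of all genes passed. At an unadjusted p under 0.05, 3 were higher (Marco, Mpeg1 and Cd68) and 0 lower, where 2.74% of all genes were higher and 3.03% lower. For 2 (Marco and Cd68) all HDAC6 knockout arrays lay above all chow arrays, as did 4.83% of genes.

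HDAC9 knockout livers had higher means than chow for all 9 measured markers, against 46% of genes, with a median log2 fold change of 0.32 against -0.01 over all genes. 0 passed the adjusted threshold (0.0968% of genes passed). 4 were higher at an unadjusted p under 0.05 (Cd5l, Mpeg1, Cd68 and Marco) and 0 lower, where 2.49% of genes were higher and 3.6% lower. All arrays lay above chow for 3 (Cd5l, Mpeg1 and Cd68), as for 5.39% of genes. Without HDAC9 knockout replicate 2, the means of all 9 were still higher, the median was 0.19, and 3 were higher at an unadjusted p under 0.05, against 2.37% of genes in that fit.

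High-fat livers had higher means than chow for 8 of the 9 markers, all but Cd163, against 47.2% of genes, with a median log2 fold change of 0.36 against -0.01 over all genes. 0 passed the adjusted threshold (0.29% of genes passed), and the lowest adjusted p was that of Marco. 5 were higher at an unadjusted p under 0.05 (Marco, Cd68, Cd5l, Mpeg1 and Clec4f) and 0 lower, where 4.13% of genes were higher and 4.35% lower. All high-fat arrays lay above chow for 3 (Marco, Cd68 and Cd5l), as for 7.02% of genes. The 3 comparisons share the chow arrays, so their counts are not independent of each other. The 9 markers also varied together across the arrays, so a count is not one of 9 independent genes. They were chosen with earlier results of these data known.

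**Figure D3:**
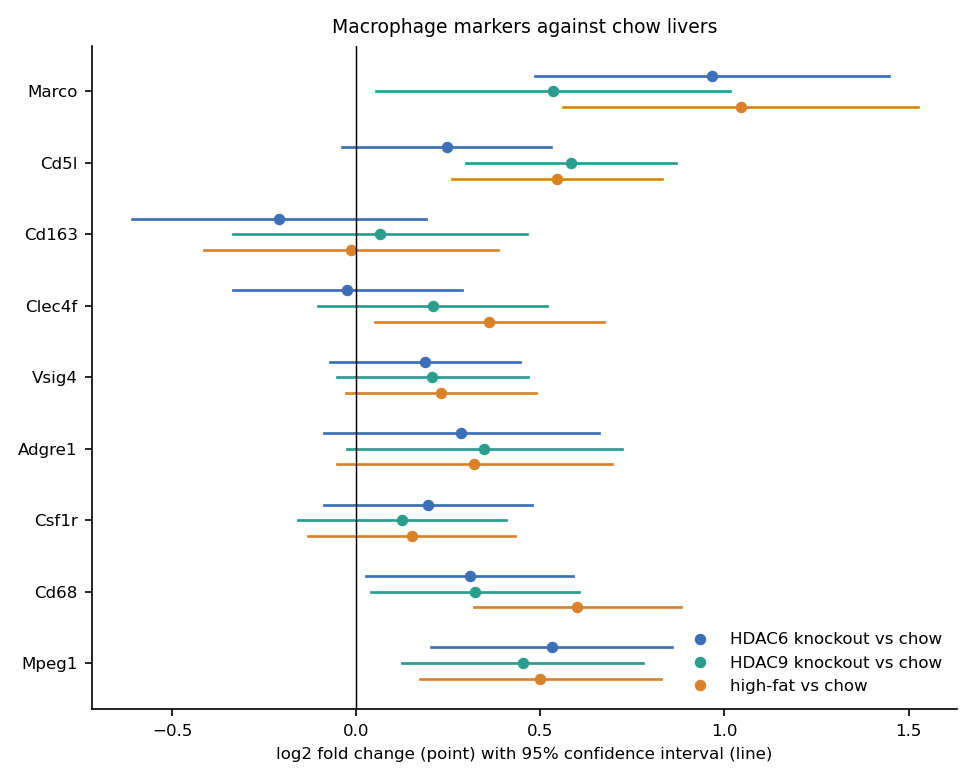
Log2 fold change of the 9 measured markers against chow livers in the 3 other groups. Points are fitted differences and lines are 95% confidence intervals. The intervals of Marco, Cd68 and Mpeg1 lie above 0 in all 3 comparisons, and those of Cd163, Vsig4, Adgre1 and Csf1r reach across 0 in all 3.

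The chow arrays themselves spread widely. Replicate 2 was the highest chow array for 7 of the 9 markers and replicate 3 the lowest for 7, and the median SD of a marker was 0.29 among chow arrays, against 0.11 among HDAC6 knockout, 0.20 among HDAC9 knockout and 0.18 among high-fat arrays. The mean of the 9 markers, each relative to its 12-array mean, was -0.30, -0.01 and -0.45 on the 3 chow arrays, and reached from -0.05 to 0.13 on HDAC6 knockout, from -0.14 to 0.19 on HDAC9 knockout and from 0.03 to 0.23 on high-fat arrays. Chow replicate 2 thus lay within the range of both knockouts. HDAC9 knockout replicate 3 was the lowest of its group for all 9 markers.

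The counts moved with these arrays. Without chow replicate 2, the markers higher than chow at an unadjusted p under 0.05 numbered 6 in the HDAC6 knockout, 6 in the HDAC9 knockout and 8 in high-fat livers, against 2.82%, 2.48% and 4.21% of all genes in those fits. Without chow replicate 3 they numbered 2, 2 and 4, against 2.8%, 2.55% and 3.85% of genes. Leaving out HDAC9 knockout replicate 3 gave 6 in that group (2.34% of genes), and leaving out HDAC6 knockout replicate 2 gave 2 in that one (1.91%). In each of these fits 0 markers passed the adjusted threshold.

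In the comparisons among the 3 groups other than chow, 0 markers passed limma's adjusted threshold. Against HDAC6 knockout livers, HDAC9 knockout livers had a higher Cd5l (0.34, interval 0.05 to 0.62, unadjusted p = 0.0232), the only marker of 9 at an unadjusted p under 0.05, where 1.78% of genes were higher and 0.00807% passed the adjusted threshold. Their arrays lay above those of the HDAC6 knockout for Cd5l and Clec4f, as for 3.74% of genes. Without the pancreas-rich array Cd5l was at 0.22 (unadjusted p = 0.123), and 0 markers had an unadjusted p under 0.05, where 1.32% of genes were higher. High-fat livers, set against HDAC6 knockout livers, had 3 markers higher at an unadjusted p under 0.05, against 3.58% of genes: Clec4f (0.39, interval 0.07 to 0.70), Cd5l (0.30, interval 0.02 to 0.58) and Cd68 (0.29, interval 0.01 to 0.57). The arrays of these 3 did not overlap between the groups, which held for 6.6% of genes. Set against HDAC9 knockout livers, high-fat livers had 1 marker higher at an unadjusted p under 0.05, Marco (0.51, interval 0.03 to 0.99, unadjusted p = 0.0395), against 4.46% of genes. Marco was also the only marker whose arrays did not overlap there, which held for 7.67% of genes. Without the pancreas-rich array the marker at an unadjusted p under 0.05 was Cd68 (0.41, unadjusted p = 0.00864), where 3.92% of genes were higher, and Marco was at 0.46 (unadjusted p = 0.0943).

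The order of the group means differed between markers. High-fat livers were highest for Marco, Cd68, Clec4f and Vsig4, HDAC9 knockout livers for Cd5l, Adgre1 and Cd163, and HDAC6 knockout livers for Mpeg1 and Csf1r. For Adgre1, Mpeg1, Vsig4 and Csf1r the 3 groups above chow lay within 0.08 of each other, and none of these differences had an unadjusted p under 0.05.

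Across the 12 arrays the markers varied together: over 36 pairs of markers Pearson's r lay between -0.01 and 0.91 with a median of 0.58, and after each group's mean was removed the median was 0.54. The values of a pair come from the same arrays and RNA, so the correlations are a description. Among 12384 other genes, those whose values over the 12 arrays most resembled the mean of the markers were Cd44 (r = 0.92), Slc11a1 (0.92), Fcer1g (0.88), Itgb2 (0.88), Slc15a3 (0.88) and Il18bp (0.88). Cd44 is an adhesion receptor, Slc11a1 a phagosomal metal transporter, Fcer1g a signalling chain of Fc receptors, and Itgb2 the beta chain of leukocyte integrins. Cd44 read 6.66, 6.59 and 6.62 in HDAC6 knockout livers, 7.07, 6.803 and 6.68 in HDAC9 knockout livers, 7.12, 6.85 and 6.64 in high-fat livers, and 6.23, 6.803 and 5.83 in chow livers. Like the mean of the 9 markers, it was lowest on chow replicates 1 and 3 and not on chow replicate 2. After the group means were removed, the most similar genes were others, namely Casp12 (0.93), Dmpk (0.92), Depdc1a (0.90), Hspa8 (0.90), Sart3 (0.897) and Fancm (0.896).

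Of 19 other measured genes of Kupffer cell identity, 13 had higher means than chow in HDAC6 knockout, 11 in HDAC9 knockout and 13 in high-fat livers, with median log2 fold changes of 0.07, 0.06 and 0.26. At an unadjusted p under 0.05, 4, 3 and 7 were higher and 1, 3 and 2 lower. Over all genes 2.74%, 2.49% and 4.13% were higher and 3.03%, 3.6% and 4.35% lower. The medians were 0.13, 0.014 and 0.16 without chow replicate 2 and 0.07, -0.06 and 0.15 without chow replicate 3. Only Hmox1, haem oxygenase of cells that degrade haemoglobin, passed the adjusted threshold, in high-fat livers. It read 6.72, 6.74 and 6.49 in high-fat livers, against 5.74, 5.48 and 5.36 in chow livers (1.12, SE 0.213, limma adjusted p = 0.0465). The HDAC6 knockout arrays read 5.53, 5.66 and 6.46 and the HDAC9 knockout arrays 5.60, 6.19 and 5.83, overlapping chow in both. The call was lost on leaving out any 1 of the 6 arrays, with adjusted p between 0.0702 and 0.199. Genes that did not pass ran both ways in high-fat livers: Sdc3, a heparan sulphate proteoglycan, at 0.51 and Cd207, a C-type lectin, at -0.71 (adjusted p = 0.101 and 0.0807). In the HDAC9 knockout the genes of smallest p were Slc15a3 (0.53), Hpgd (-0.35) and Sdc3 (0.40). In the HDAC6 knockout they were Sdc3 (0.32), Id1 (0.89) and Slc15a3 (0.36). Whole liver was profiled, and which of its cells gave the values of this list was not tested.

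Of 29 other measured genes that macrophages share, 23, 26 and 24 had higher means than chow in HDAC6 knockout, HDAC9 knockout and high-fat livers, with medians of 0.19, 0.26 and 0.24. 0 passed limma's adjusted threshold, and 6, 12 and 12 were higher at an unadjusted p under 0.05 with 0 lower. Of all genes 2.74%, 2.49% and 4.13% were higher. Without chow replicate 2 the higher genes of the list numbered 9, 17 and 16, against 2.82%, 2.48% and 4.21% of all genes. Without chow replicate 3 they numbered 3, 5 and 8, against 2.8%, 2.55% and 3.85%. Without HDAC9 knockout replicate 2 that group had 7, against 2.37%. Ms4a7, a membrane protein of macrophages, had the smallest p in the HDAC6 knockout. It read 5.49, 6.19 and 5.74 there, 5.27, 5.37 and 5.27 in HDAC9 knockout, 5.49, 5.49 and 5.24 in high-fat and 4.86, 5.16 and 5.02 in chow livers. Every array outside chow thus lay above the chow arrays, a pattern not counted over all genes. The HDAC6 knockout value of Ms4a7 was 0.79 (SE 0.155, limma adjusted p = 0.169). Cybb, the catalytic subunit of the phagocyte oxidase, was at 0.44 in the HDAC6 knockout and 0.53 in the HDAC9 knockout. Hpgds, a prostaglandin D synthase, was at 0.46 in high-fat livers and Pld4, an endolysosomal nuclease, at 0.44.

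Of 19 measured CSF1R ligands, signalling adaptors and macrophage lineage transcription factors, 9, 13 and 16 had higher means than chow in HDAC6 knockout, HDAC9 knockout and high-fat livers, with medians of -0.01, 0.07 and 0.22. 0 passed against chow by limma, and 1, 2 and 6 were higher at an unadjusted p under 0.05, against 2.74%, 2.49% and 4.13% of all genes. Spi1, which encodes PU.1, read 5.94, 5.92 and 6.08 in HDAC6 knockout, 6.002, 6.25 and 6.14 in HDAC9 knockout, 6.33, 6.05 and 6.05 in high-fat, and 5.75, 5.99 and 5.31 in chow livers. All HDAC9 knockout and high-fat arrays lay above the chow arrays (0.45 and 0.46, adjusted p = 0.659 and 0.362), and HDAC6 knockout arrays overlapped them (0.30). Fes, a tyrosine kinase of myeloid cells, read 6.58, 6.41 and 6.47 in high-fat livers, against 6.11, 5.84 and 5.94 in chow livers (0.52, SE 0.104, adjusted p = 0.0577).

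Cebpb, a transcription factor that hepatocytes also express, passed the test in high-fat livers against both knockouts. It read 10.89, 10.99 and 11.09 in high-fat livers, against 10.41, 10.105 and 10.49 in HDAC6 knockout and 10.39, 10.48 and 10.305 in HDAC9 knockout livers. Chow livers, outside these comparisons, read 10.53, 10.37 and 10.61, also below all high-fat arrays. The log2 fold changes were 0.66 (adjusted p = 0.0245) and 0.60 (adjusted p = 0.0309), and the calls were lost on leaving out 4 and 5 of the 6 arrays (all but HDAC6 knockout replicate 3 and high-fat replicate 1, and all but HDAC9 knockout replicate 1), with adjusted p up to 0.133 and 0.149. Against HDAC9 knockout livers, Irf5, a transcription factor of inflammatory macrophages, was higher in high-fat livers by 0.49 (adjusted p = 0.0417). The call was lost without any 1 of the 6 arrays, and the mean of its probe sets gave 0.16. Irf5 read 6.91, 6.88 and 6.95 in high-fat, 6.46, 6.37 and 6.44 in HDAC9 knockout and 6.71, 6.57 and 6.55 in chow livers. The Kupffer cell list's Hpgd, a prostaglandin-degrading enzyme, was higher in high-fat than in HDAC9 knockout livers by 0.61 (adjusted p = 0.0157). The call was lost without HDAC9 knockout replicate 2 or high-fat replicate 1 or 3 (adjusted p up to 0.0735). Hpgd read 11.41, 11.36 and 11.37 in high-fat, 10.82, 10.67 and 10.84 in HDAC9 knockout and 11.04, 11.24 and 11.10 in chow livers. All its HDAC9 knockout arrays thus lay below chow and all its high-fat arrays above. 0.145% of all genes passed against the HDAC6 knockout and 0.436% against the HDAC9 knockout.

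Genes of recruited monocytes and lipid-associated macrophages had small median differences from chow. Of 15 measured, 10, 13 and 12 had higher means than chow in HDAC6 knockout, HDAC9 knockout and high-fat livers, with medians of 0.03, 0.11 and 0.13. 0 passed by limma, with 0, 0 and 2 higher and 0, 1 and 1 lower at an unadjusted p under 0.05. Of all genes 2.74%, 2.49% and 4.13% were higher and 3.03%, 3.6% and 4.35% lower. In high-fat livers Trem2, the lipid-sensing receptor of lipid-associated macrophages, was at 0.25 and Cd9, a tetraspanin of many cell types, at -0.87 (adjusted p = 0.494 and 0.268).

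Of 20 macrophage cytokine and polarisation genes, 12, 11 and 12 had higher means in the 3 groups. Il1b, which encodes interleukin-1 beta, was the only one to pass, in HDAC9 knockout livers. It read 6.20, 6.17 and 5.89 in HDAC6 knockout livers, 6.47, 6.42 and 6.38 in HDAC9 knockout livers, 6.25, 5.97 and 5.98 in high-fat livers, and 5.49, 5.78 and 5.46 in chow livers. All 9 arrays outside chow lay above the chow arrays, a pattern not counted over all genes. The log2 fold change was 0.84 in the HDAC9 knockout (SE 0.127, limma adjusted p = 0.0377), 0.51 in the HDAC6 knockout (adjusted p = 0.486) and 0.49 in high-fat livers (adjusted p = 0.203). The call in the HDAC9 knockout held without chow replicate 2 and was lost on leaving out any 1 of the other 5 arrays (HDAC9 knockout replicate 1, 2 or 3, chow replicate 1 or 3), with adjusted p up to 0.152. Ccl3, a chemokine, was at 0.32, 0.29 and 0.44 in the 3 groups and did not pass.

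The lysosomal list, whose genes most cell types use, had medians near 0. Of 16 genes, 10, 9 and 8 had higher means in HDAC6 knockout, HDAC9 knockout and high-fat livers (medians 0.08, 0.0069 and 0.00083). Single genes of the list ran both ways, from -0.15 to 0.38, from -0.13 to 0.68 and from -0.51 to 0.49 in these groups. The protease Ctsb was at 0.10 and 0.12 in the HDAC6 and HDAC9 knockouts, and the acid lipase Lipa at -0.18 in high-fat livers. Hepatocyte markers had medians of -0.02, 0.02 and -0.01 over 10 genes, 5, 5 and 3 of them with higher means, liver sinusoidal endothelial markers -0.02, -0.02 and 0.01 over 14 genes (6, 6 and 7), and stellate cell markers 0.03, -0.01 and 0.04 over 11 genes (7, 5 and 6). 0 genes of these 4 lists passed limma's adjusted threshold, and at most 2 of a list were higher at an unadjusted p under 0.05. Among stellate cell genes Lrat, the enzyme that stores retinol as esters, was at 0.74 in the HDAC6 knockout and 0.70 in high-fat livers (adjusted p = 0.699 and 0.319).

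**Figure D4:**
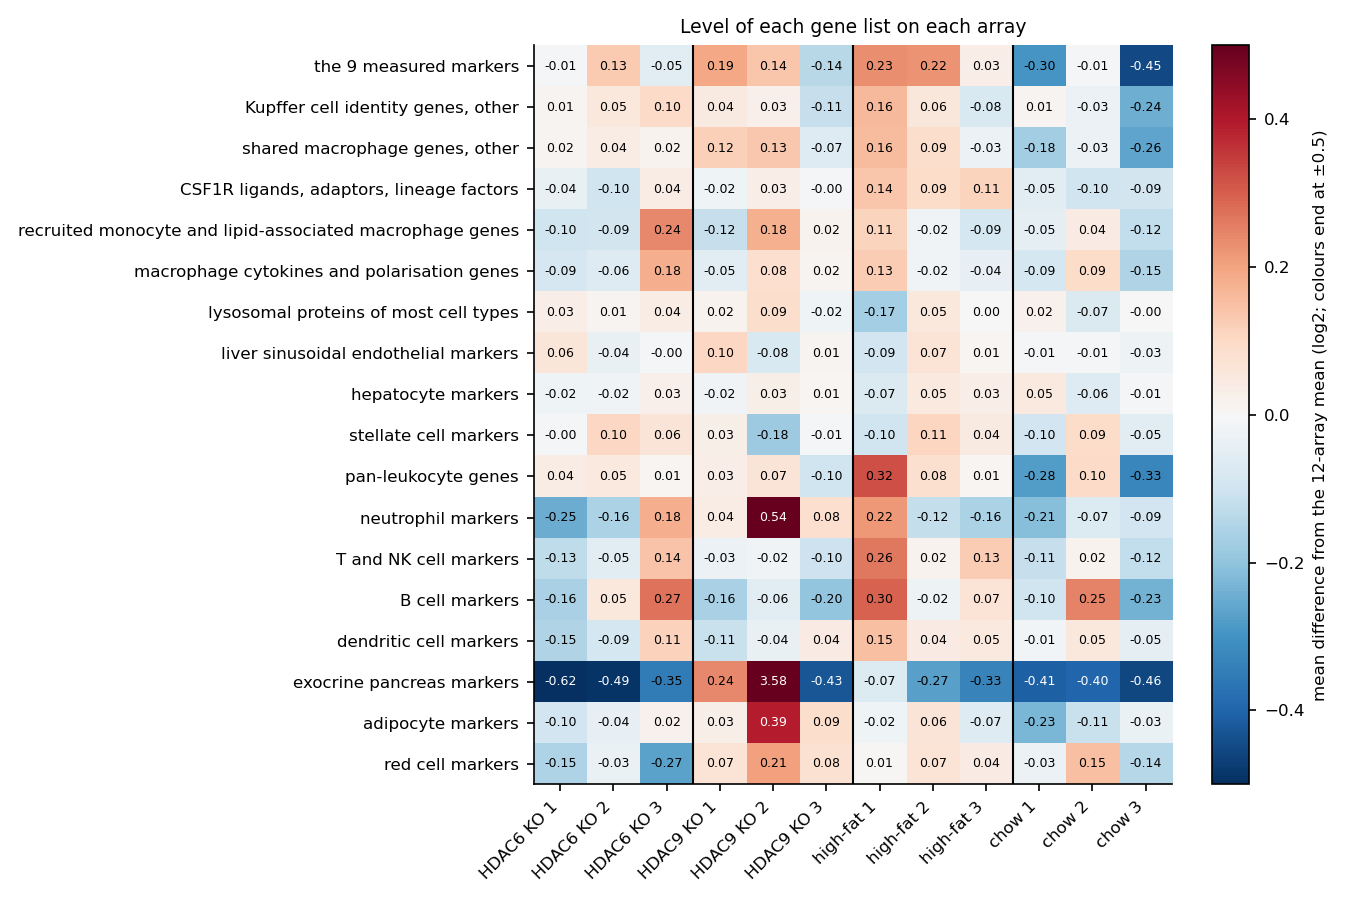
Mean of each gene list on each of the 12 arrays, each gene relative to its 12-array mean, as log2 differences. Colours end at 0.5 in either direction. The 9 markers and the pan-leukocyte genes are lowest on chow replicates 1 and 3 and near or above 0 on chow replicate 2, and the exocrine pancreas list stands out on HDAC9 knockout replicate 2.

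Genes that all leukocytes share had higher means beside those of the macrophage markers. Of 10 pan-leukocyte genes, 9 had higher means than chow in each of the 3 groups, with medians of 0.20, 0.12 and 0.35 in HDAC6 knockout, HDAC9 knockout and high-fat livers. 0 passed by limma, and 3, 3 and 6 were higher at an unadjusted p under 0.05, against 2.74%, 2.49% and 4.13% of all genes. Leaving out chow replicate 2 gave 5, 4 and 9 (medians 0.35, 0.28 and 0.48), against 2.82%, 2.48% and 4.21% of all genes. Leaving out chow replicate 3 gave 3, 2 and 2 (medians 0.06, 0.05 and 0.27), against 2.8%, 2.55% and 3.85%. Their mean lay between 0.01 and 0.05 on HDAC6 knockout, between -0.10 and 0.07 on HDAC9 knockout and between 0.01 and 0.32 on high-fat arrays, and at -0.28, 0.10 and -0.33 on the 3 chow arrays. Coro1a, an actin-binding protein of leukocytes, was at 0.35, 0.31 and 0.48, and Rac2, a small GTPase, at 0.39, 0.36 and 0.45. Macrophages express these genes too, and the part of other leukocytes in the result was not tested.

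Markers of single other blood lineages varied by lineage and group. The means of all 11 T and NK cell genes were higher in high-fat livers, and those of all 12 neutrophil genes in the HDAC9 knockout. The remaining counts were mixed. Of the genes of these lineages 0 passed limma's adjusted threshold against chow, with at most 2 of a list higher at an unadjusted p under 0.05. T and NK cell markers had higher means in 7, 7 and 11 of 11 genes (medians 0.06, 0.05 and 0.19), led in high-fat livers by Nkg7, a protein of cytotoxic granules, at 0.45. B cell markers were higher in 5, 2 and 7 of 8 (medians 0.06, -0.07 and 0.10), with the shared antigen presentation gene Cd74 at 0.57 in the HDAC6 knockout. Dendritic cell markers were higher in 3, 4 and 6 of 8 (medians -0.02, -0.02 and 0.05). Neutrophil markers were higher in 7, 12 and 9 of 12 (medians 0.04, 0.20 and 0.14), and their mean was highest, at 0.54, on HDAC9 knockout replicate 2. Red cell markers were higher in 1, 4 and 3 of 6 (medians -0.20, 0.05 and 0.01).

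Exocrine pancreas markers had higher means in 4, 12 and 9 of 12 genes, with medians of -0.06, 1.59 and 0.08 in HDAC6 knockout, HDAC9 knockout and high-fat livers, and without HDAC9 knockout replicate 2 that group's median was 0.38. Adipocyte markers were higher in 6, 8 and 7 of 9 (medians 0.07, 0.23 and 0.05). Lpl, lipoprotein lipase, which macrophages also express, passed in the HDAC9 knockout (1.23, SE 0.208, limma adjusted p = 0.0463). Without HDAC9 knockout replicate 2 it was at 0.98 with an adjusted p of 0.104, and the call was also lost without HDAC9 knockout replicate 3 or chow replicate 1 or 2 (adjusted p up to 0.193).

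Without the pancreas-rich array, 12 of the 19 Kupffer cell identity genes had higher means in HDAC9 knockout than in chow livers (median 0.06), with 3 higher and 2 lower at an unadjusted p under 0.05. Of the 29 shared macrophage genes, 26 had higher means (median 0.20). Of the 10 pan-leukocyte genes 9 did (median 0.095), with 2 higher at an unadjusted p under 0.05. In that fit 2.37% of all genes were higher at this p. CSF1R ligands, adaptors and lineage factors had a median of 0.05 and recruited monocyte genes one of 0.07. Neutrophil markers had higher means in 11 of 12 genes with a median of 0.20. The lysosomal median turned to -0.04, with 4 of 16 means higher.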

How the data were processed

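RNA from whole livers was amplified and labelled with biotin from 100 ng per sample, per the labels' protocols. The values deposited by the authors are log2 expression per probe set after RMA, per the submitters' processing notes. Which software and chip definition were used is not given in the sources used here. They were taken as deposited, and 0 value columns were left unused. Of 22626 probe sets, 20380 had 1 gene symbol (20351 matched RefSeq), 691 several and 1555 none. The probe set with the highest mean stood for a gene. Tests used limma 3.58.1 in R 4.3.3 (4 group means over 12 arrays, mean-variance trend, two-sided, 14.32 degrees of freedom, median standard error 0.124), with Benjamini-Hochberg adjustment over 12393 genes in each comparison and a threshold of 0.05. The procedure was tested on simulated data. Array number limits the precision.

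The markers and gene lists were chosen with earlier results of these data known. Named were all markers, list genes that passed, otherwise up to 3 of smallest p per list and chow comparison (1 or 2 for other cell types), the 6 genes most correlated with the markers, Hdac6 and Hdac9. Alternatives were other variance priors, a fit of the compared groups alone, quantile normalization, median centring, expression filters, other probe-set rules, a replicate block and each array left out. The single-array counts, the HDAC9 knockout values without replicate 2 outside the chow comparison, and the alternatives for list genes that passed were added after the values were seen.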

Additional observations from a re-analysis of the deposited data

How the results depend on the processing

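0 markers passed under 12 of the 13 alternative settings and under every single-array removal in the chow comparisons. The exception was the replicate number as a block, where 1 marker passed in high-fat livers (Marco, 1.04, limma adjusted p = 0.0483). Same-numbered arrays of different groups correlated between -0.15 and 0.15 (4 of 18 pairs over 0.1), and different-numbered arrays between -0.24 and 0.24 (5 of 36 pairs over 0.1). 2 of 12 arrays correlated best with their own number. The labels do not say whether a number marks a shared litter or day, and these values cannot decide it. Of the marker values recomputed, 446 kept their direction and side of the threshold. 9 turned in sign: Clec4f in the HDAC6 knockout without chow replicate 1 (0.083) or 2 (0.0061), Cd163 in the HDAC9 knockout without HDAC9 knockout replicate 1 (-0.12) or chow replicate 3 (-0.09), and Cd163 in high-fat livers under quantile normalization (0.0077), without high-fat replicate 1 (0.04) or 3 (0.03) and without chow replicate 1 (0.02) or 2 (0.11). With single arrays left out these 3 ranged from -0.16 to 0.083, from -0.12 to 0.26 and from -0.17 to 0.11. Of 27 marker differences from chow, 18 were largest without chow replicate 2 and 14 smallest without chow replicate 3. Marco ranged from 0.69 to 1.17 in the HDAC6 knockout, from 0.40 to 0.74 in the HDAC9 knockout and from 0.91 to 1.25 in high-fat livers. The genes that passed in the HDAC6 knockout, the HDAC9 knockout and high-fat livers against chow numbered 2, 12 and 36, and between 1 and 4, 0 and 17, and 12 and 38 over all alternatives. List genes that passed lost the call under 5 of 10 other settings (Hmox1), 2 of 9 (Il1b), 8 of 11 (Lpl), 5 of 11 (Irf5), 1 of 11 (Hpgd) and 1 and 2 of 11 (Cebpb, against HDAC6 and HDAC9 knockout livers). Groups of 3 were not tested for outlying arrays, and fold changes near the median standard error of 0.124 cannot be resolved at this size.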
